A study of Mus musculus with 15 samples.

Results

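The messenger RNA bound to ribosomes that carry phosphorylated ribosomal protein S6 was examined in the olfactory epithelium of mice that had received no added odorant. These are the 3 Control libraries of a series of 15 libraries in 5 groups of 3, in which the other groups were exposed to mixtures of odorants. They were chosen by their label, and no other library entered any value given here. The Control animals were wild-type C57BL/6J males of 8 weeks. Each was habituated alone for 4 h in a chamber kept free of odour and was then exposed to empty filter paper for 90 min. The labels describe the libraries as biological replicates. Each is taken here as 1 mouse, because the labels do not say whether animals were pooled. Among the 57010 genes counted, 1108 were intact odorant receptor genes, that is, genes with Olfr and a number as their symbol, and 299 were receptor pseudogenes. No group was compared with another and no test was made between groups, so the values below are levels with their spread over 3 mice.

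Odorant receptors are G protein-coupled receptors of the cilia of olfactory sensory neurons. Each mature neuron expresses a single receptor gene from a single allele, so the amount of a receptor transcript in the tissue depends on how many neurons chose it and on how much RNA each of them holds. In bulk tissue these cannot be told apart. Active neurons phosphorylate S6, and precipitation of phosphorylated ribosomes enriches the transcripts of such cells. Cells without odour stimulation also phosphorylate S6 through growth factor and nutrient signalling, and RNA can be carried along unspecifically. Whole-tissue RNA was not analysed here, so a level in the precipitate does not show by how much a transcript was enriched.

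The libraries held 23695661, 24310173 and 23313635 counts for Control 1, Control 2 and Control 3. Between 18243 and 18412 genes had at least 10 counts, and 883 to 927 genes together held 50% of a library. Across the 17279 genes with enough counts to estimate a spread, log2 levels of different mice had a Pearson correlation of 0.989 to 0.991. Ribosomal protein genes took 1.00% to 1.38% of the counts, highest in Control 3, and mitochondrial transcripts took 0.0837% to 0.118%. Levels are given as counts per 1000000 of the library total (CPM). Because a longer transcript yields more reads, levels of different genes are also given per kb of annotated coding sequence or of the longest annotated transcript.

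Intact receptors took 73128, 88736 and 81681 counts in the 3 mice. As a share of the library this was 0.309% (exact 95% binomial interval 0.306% to 0.311%), 0.365% (0.363% to 0.367%) and 0.350% (0.348% to 0.353%), so the mice differed by more than counting error, with Control 1 lowest. The intervals cover counting error only. At least 10 counts were found in every mouse for 681 receptors, or 61.5% of them, and at least 1 count in every mouse for 945. No receptor was among the 2000 genes with the highest CPM, and 6 were among the first 5000. The median of the 678 receptors with enough counts to estimate a spread was 2.15 CPM, against 16.6 CPM for all 17279 such genes. Per kb of coding sequence these medians were 2.27 and 13.5 CPM, and per kb of transcript 0.699 and 5.03 CPM, so receptors stood below the other genes on each scale. Receptor pseudogenes added little, with 2.88% to 3.38% of the counts of receptors and pseudogenes together.

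Receptor levels covered a wide range. The receptor at the 10th percentile had 0.0575 CPM, the median receptor 1.05 CPM and the one at the 90th percentile 7.39 CPM, and the highest had 78.1 CPM, which is 74.1 times the median. In all, 567 receptors exceeded 1 CPM, 78 exceeded 10 CPM and 33 exceeded 20 CPM. The highest 10% of the receptors held 58.2% ± 1.08 of the receptor counts (SD, n = 3), and 77, 83 and 76 receptors held 50% of them. The effective number of receptors, which is the exponential of the Shannon entropy and would be 1108 if all receptors had equal counts, was 378, 406 and 375. The Gini coefficient, which is 0 for equal counts and nears 1 when a single gene holds all of them, was 0.724, 0.702 and 0.723. Both measures placed Control 2 as the mouse with the most even repertoire.

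**Figure D1:**
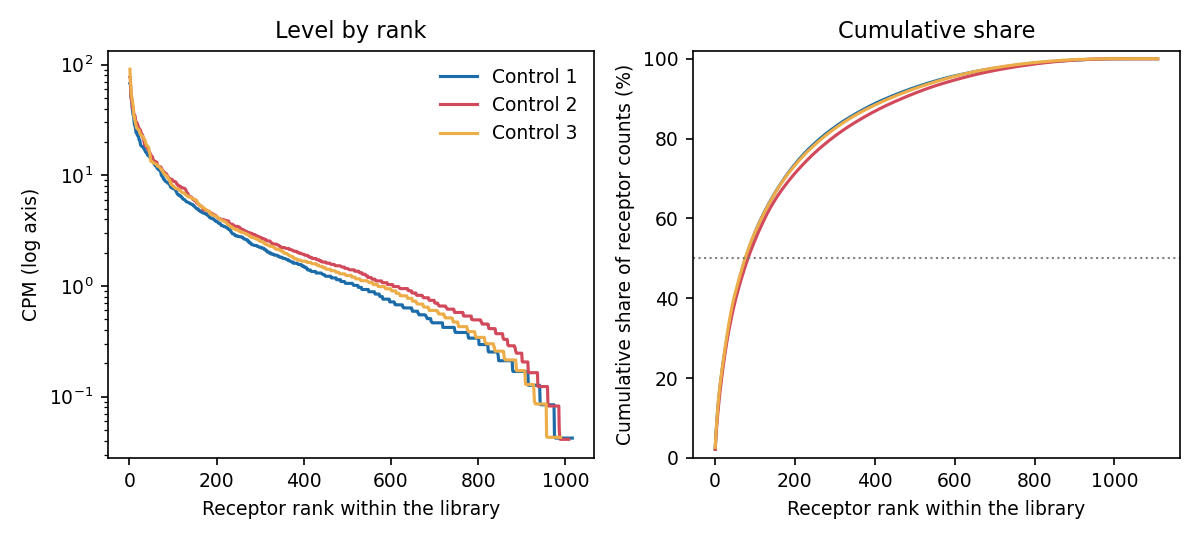
Left, the level of each intact receptor (CPM, log axis) against its rank within the library, for 3 Control mice, with receptors at 0 left out. Right, the cumulative share of receptor counts (%) against rank, with a dotted line at 50%, which the curves cross at 76 to 83 receptors.

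The order of receptors was largely shared by the mice. Over all 1108 receptors Spearman's rho between mice was 0.930 to 0.932, given as a description across genes that share libraries. Of the 20 highest receptors of a mouse, 12 were among the 20 highest in every mouse, and of the 100 highest, 84 were. The 20 receptors with the highest mean together held 22.6% of receptor counts, each at 26.2 CPM or more. By sequence class 19 of them were class II, the class of receptors particular to land vertebrates, none was class I and 1, Olfr455, had no class in the synonyms used.

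Olfr727 was the highest receptor, with 67.8, 75.9 and 90.7 CPM in Control 1, 2 and 3. Olfr711 followed with 67.3, 77.1 and 70.1 CPM. Their ranges overlapped, so their order by CPM is not resolved by these mice. Olfr536 lay below both in every mouse, at 52.5, 54.7 and 65.1 CPM. Olfr15 had 49.9, 48.6 and 52.2 CPM, and Olfr1348 had 49.3, 47.4 and 53.4 CPM. These 2 receptors overlapped fully and stood above Olfr726 (40.9, 39.2 and 48.6 CPM) in each mouse. Below them, the means of neighbours in the order differed by less than their SD over mice: Olfr309, Olfr166, Olfr370, Olfr449, Olfr6, Olfr1391, Olfr742, Olfr743, Olfr1507, Olfr12, Olfr263, Olfr140, Olfr455 and Olfr524 ran from a mean of 41.0 down to 26.2 CPM. Within each mouse, Olfr309 (38.7, 38.2 and 46.0 CPM) still lay below Olfr726 and above Olfr166 (34.6, 34.2 and 43.3 CPM). Olfr166 and Olfr370 (35.4, 30.2 and 41.1 CPM) changed places between mice. Per kb of coding sequence Olfr727, Olfr711, Olfr536, Olfr15, Olfr1348 and Olfr726 stood at 80.4, 75.9, 62.4, 53.7, 52.4 and 44.6 CPM. The coefficient of variation between mice was 0.0365 to 0.233 for 19 of the 20. Olfr1391 had 0.385, with 20.3, 40.9 and 24.1 CPM, and stood out in Control 2.

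**Figure D2:**
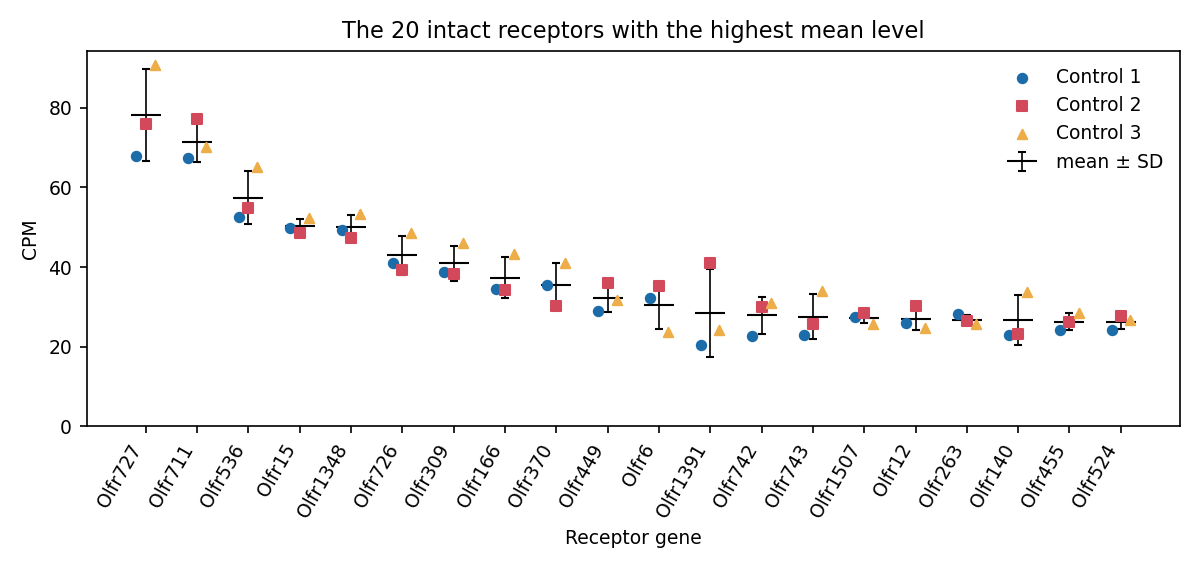
Level (CPM) of the 20 intact receptors with the highest mean, with 1 point for each Control mouse and the mean ± SD (n = 3) in black. Olfr727 and Olfr711 overlap, and Olfr1391 is set apart by its value of 40.9 CPM in Control 2.

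Receptor genes arose by duplication, and near-identical copies compete for the same reads. Among the 802 receptors with a mean of at least 10 counts, 159 (19.8%) had estimated counts with a fraction in at least 2 of the 3 libraries, which is how divided reads appear in these files. Receptors of that kind held 35.8% of all receptor counts. In their annotated transcripts, the median receptor of this kind shared 17.1% of its stretches of 50 bases with another gene, and each of the 159 shared some. Among the 643 with whole counts the median was 1.45%, and 168 shared none. Of the 20 highest receptors 11 were not whole, Olfr727, Olfr536, Olfr1348 and Olfr726 among them, so their levels depend on how the authors' software divided reads, and the same sequences decide how well neighbours can be told apart. Olfr727 and Olfr726 had 93.1% of aligned coding bases in common. A close pair and a distant pair are shown here as the first 90 coding bases from the start codon, taken from the GENCODE vM21 transcripts (GRCm38), with capitals where the members of a pair differ. Olfr742 and its closest relative Olfr741 differed at 3 of the 90 bases, and had 96.4% of coding bases in common over the whole sequence. Olfr711 and its closest relative Olfr1414 differed at 28 of the 90 bases and had 70.8% in common, and the counts of Olfr711 were whole in every library.
Olfr742: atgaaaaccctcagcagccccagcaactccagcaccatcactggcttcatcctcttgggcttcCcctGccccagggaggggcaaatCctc
Olfr741: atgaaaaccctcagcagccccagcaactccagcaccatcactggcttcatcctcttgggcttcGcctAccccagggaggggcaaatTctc
Olfr711: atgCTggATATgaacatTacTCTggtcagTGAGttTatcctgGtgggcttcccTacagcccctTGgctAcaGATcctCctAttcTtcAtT
Olfr1414: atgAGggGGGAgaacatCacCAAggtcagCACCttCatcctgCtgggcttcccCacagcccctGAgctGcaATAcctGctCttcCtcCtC
Within the stretch of Olfr742 and Olfr741, a read that covers none of the 3 differing bases would fit both genes. The counts of Olfr742 (22.6, 29.9 and 31.0 CPM) had a fraction in every library, and its level is less certain than that of Olfr711.

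Scaling by length changed part of the order. Per kb of coding sequence 19 of the 20 highest receptors kept their place among the 20 highest, since receptor coding sequences are all close in length, but per kb of the longest annotated transcript 12 did. Olfr727 had the highest mean on every scale, with 29.9 CPM per transcript kb, although Olfr711 was above it in Control 2 by CPM, and Olfr726 came second on this scale with 24.5 CPM per transcript kb. Olfr15 fell from 4th place by CPM to 22nd and Olfr6 from 11th to 62nd. Length and level were related more broadly. From the fifth of receptors with the shortest annotated transcripts to the fifth with the longest, the median levels were 0.125, 1.19, 1.13, 1.31 and 1.61 CPM, and 67, 146, 145, 151 and 172 receptors of these groups had 10 counts in every mouse. Per transcript kb the same medians were 0.0988, 0.556, 0.392, 0.351 and 0.312, so the shortest group was lowest on both scales while the rise among the other groups was not seen per length. Across the 1108 receptors Spearman's rho of CPM and transcript length was 0.368, with all points from the same libraries. Short annotated transcripts can be models of the coding part alone, and reads from exons missing from a counting model are not counted. The lengths are those of GENCODE vM21, and the annotation used for counting is not given. The part of such models in the levels was not tested.

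At the other end, 54 receptors (4.87%) had no count in any mouse, which allows up to 3 counts per library, or 0.123 to 0.129 CPM. Of these 41 were class II, 9 class I and 4 had no class, and 47 were annotated as protein coding. Their median annotated transcript was 951 bases, against 2885 for all class I and 2926 for all class II receptors. Of the 54, 31 were annotated without any untranslated exon. The share of such models among all 1108 receptors is not given here, so the 31 cannot be read as particular to uncounted receptors. Olfr151, known as an acetophenone receptor, was among these 54. Olfr160, a receptor of the same sequence family, had 0.717, 1.03 and 1.46 CPM.

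Other receptors with a known ligand or a history as reporter lines lay throughout the distribution. Olfr1507, long used in studies of gene choice, had 27.5, 28.5 and 25.7 CPM. Olfr124 had 18.3, 31.0 and 26.3 CPM and Olfr17 had 16.1 ± 3.27 CPM (SD, n = 3). Olfr288 had a mean of 5.00 ± 1.40 CPM (SD, n = 3), but it shared 89.7% of its stretches of 50 bases with another gene and had divided reads in every library. Olfr2, an aldehyde receptor, had 3.33, 3.87 and 5.02 CPM. Olfr16, a receptor for lyral, had 2.24, 2.67 and 3.39 CPM, and the eugenol receptor Olfr73 varied more, with 0.760, 3.00 and 1.72 CPM. Among class I receptors, Olfr544, which binds azelaic acid, had 2.45, 2.79 and 1.72 CPM, Olfr545 had 0.338, 0.339 and 0.172 CPM, and Olfr78, which is also expressed outside the nose, had 0.802, 2.52 and 1.96 CPM. Receptors with a known ligand were thus found from the upper end of the distribution down to 0, where Olfr151 was annotated as a polymorphic pseudogene. The receptor nearest the median of all 1108 was Olfr644, of class I, with 0.295, 2.06 and 0.815 CPM, that is 7, 50 and 19 counts.

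Receptors differed more between mice than other genes did. The biological coefficient of variation (BCV), estimated by edgeR as the square root of the common dispersion, was 0.250 over the 678 receptors and 0.126 over all 17279 genes. Receptors have lower counts than most genes, but the gap was found in every range of counts. With mean counts of 10 to 30 the BCV was 0.274 for 188 receptors and 0.234 for 1258 other genes, with 30 to 100 counts 0.282 and 0.222, with 100 to 300 counts 0.203 and 0.149, and with 300 to 3000 counts 0.197 for 58 receptors and 0.104 for 8000 other genes. The values rest on 3 mice and were not tested against each other. Within a range, receptors and other genes can still differ in level. The last range is the widest, and the highest of its 58 receptors had a mean of 1856 counts. Among 346 receptors with a mean of at least 50 counts, 45 (13.0%) differed more than 2-fold between the highest and the lowest mouse, against 259 of 14318 other genes (1.81%). The median coefficient of variation of these receptors was 0.199. Counting error, taken as the inverse square root of the mean count, had a median of 0.0924. For the 14318 other genes these medians were 0.0940 and 0.0419. The latter have higher counts, so these shares and medians are not matched for counts, while the ranges above are matched roughly.

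Among the 346 receptors with a mean of at least 50 counts, those that varied most were Olfr518 (1.06, 4.30 and 1.67 CPM), Olfr206 (1.43, 1.61 and 4.85 CPM), Olfr1392 (19.2, 44.5 and 13.3 CPM), Olfr433 (1.35, 5.31 and 2.83 CPM) and Olfr1183 (1.14, 2.39 and 4.33 CPM). Control 2 was highest for 3 of them and Control 3 for Olfr206 and Olfr1183. The steadiest of the 346 were Olfr1442, with 4.81, 4.85 and 4.85 CPM, and Olfr665, Olfr788, Olfr1242 and Olfr527. Their coefficients of variation of 0.00476 to 0.0246 lay under the counting error of their mean counts (0.0602 to 0.124), so their steadiness cannot be told from the play of counting.

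Class I receptors, the class shared with fish, are expressed mostly by neurons of the dorsal zone of the epithelium, and class II receptors by neurons of all zones. Of the intact receptors 124 (11.2%) were class I, 960 class II and 24 had no class in the synonyms. Class I receptors held 3.39%, 5.08% and 3.76% of receptor counts, a mean of 4.07% ± 0.892 (SD, n = 3), which is less than their share of genes. Their median level was 0.651 CPM against 1.14 CPM for class II, and 0.188 against 0.359 CPM per transcript kb, with median transcripts of 2885 and 2926 bases. None was among the 100 highest receptors. The highest was Olfr597, with 5.19, 11.7 and 6.52 CPM, followed by Olfr672 (4.64, 10.3 and 6.05 CPM), Olfr571 (6.25, 6.95 and 6.86 CPM), Olfr598 (4.26, 5.88 and 3.51 CPM) and Olfr640 (2.79, 4.57 and 4.46 CPM). Each of these 5 was highest in Control 2.

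That pattern extended to the class. Of the 24 class I receptors with a mean of at least 50 counts, 22 were highest in Control 2 and 18 were lowest in Control 1. Of the 314 class II receptors at that level, 130 were highest in Control 2 and 133 in Control 3, and 142 were lowest in Control 1, against 80 in Control 2 and 92 in Control 3. Relative to each receptor's own mean on the log2 scale, the median class I receptor stood at -0.45 in Control 1, 0.47 in Control 2 and -0.04 in Control 3, and the median class II receptor at -0.10, 0.05 and 0.05. The share of class I was likewise highest in Control 2 per transcript kb (3.79%, 5.65% and 4.08%) and without receptors with divided reads (4.58%, 6.67% and 5.17%). Of genes that mark zones, Nqo1, expressed by dorsal neurons, was highest in Control 2 too, with 130, 190 and 128 CPM. Acsm4, also dorsal, was not (393, 392 and 319 CPM), and Ncam2, of the other zones, had 25.6, 23.8 and 27.1 CPM. These 3 genes were chosen after the class pattern was seen, and the part of the dissected zones in that pattern was not tested.

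**Figure D3:**
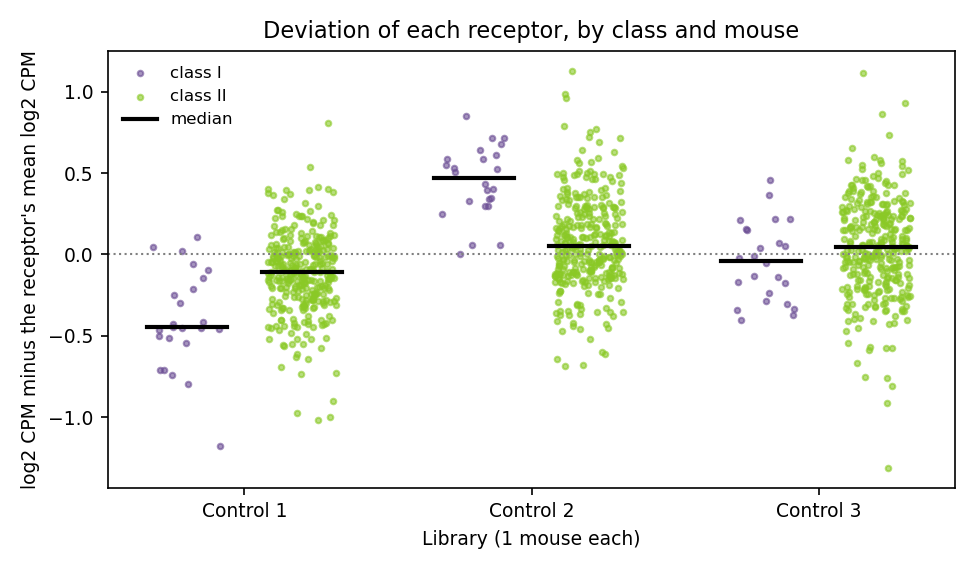
Deviation of each receptor from its own mean log2 CPM over the 3 mice, for 24 class I and 314 class II receptors with a mean of at least 50 counts, in each Control mouse, with the median of each set as a bar. Class I lies at -0.45, 0.47 and -0.04 and class II near 0 in all mice.

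The sequence families of receptors, numbered MOR in the older mouse nomenclature, differed widely in level. Receptors with a family number fell into 222 families, 31 of them with at least 10 members. Family MOR256, with 49 genes, held the largest part of receptor counts, 12.2%, 13.7% and 10.9%, and 14 of its members exceeded 10 CPM, with Olfr15 the highest. MOR103 held 10.7%, 9.47% and 9.54% with only 17 genes. All 17 had at least 10 counts in every mouse, 10 exceeded 10 CPM, and the median member had 16.5 CPM or 4.44 CPM per transcript kb, the highest median of the 31 families on both scales. Over all receptors the median was 1.05 CPM or 0.341 CPM per transcript kb. MOR103 ran from Olfr711, Olfr1348, Olfr449, Olfr6 and Olfr524, all among the 20 highest, through Olfr220 (20.9, 23.2 and 26.4 CPM) to Olfr2, Olfr1416 and Olfr750 (2.49, 1.77 and 1.67 CPM), so levels within the family covered a wide range.

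MOR246 held 3.99% ± 0.508 of receptor counts with 6 genes, most of it from Olfr727 and Olfr726. MOR106, the family of Olfr742, held 3.17% ± 0.292 with 13 genes, and MOR233 3.14% ± 0.104 with 16. The lowest medians among families of at least 10 were 0.169 CPM for the 13 genes of MOR177, 3 of which had 10 counts in every mouse, and 0.232 CPM for the 14 genes of MOR136. No member of either family exceeded 2 CPM.

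**Figure D4:**
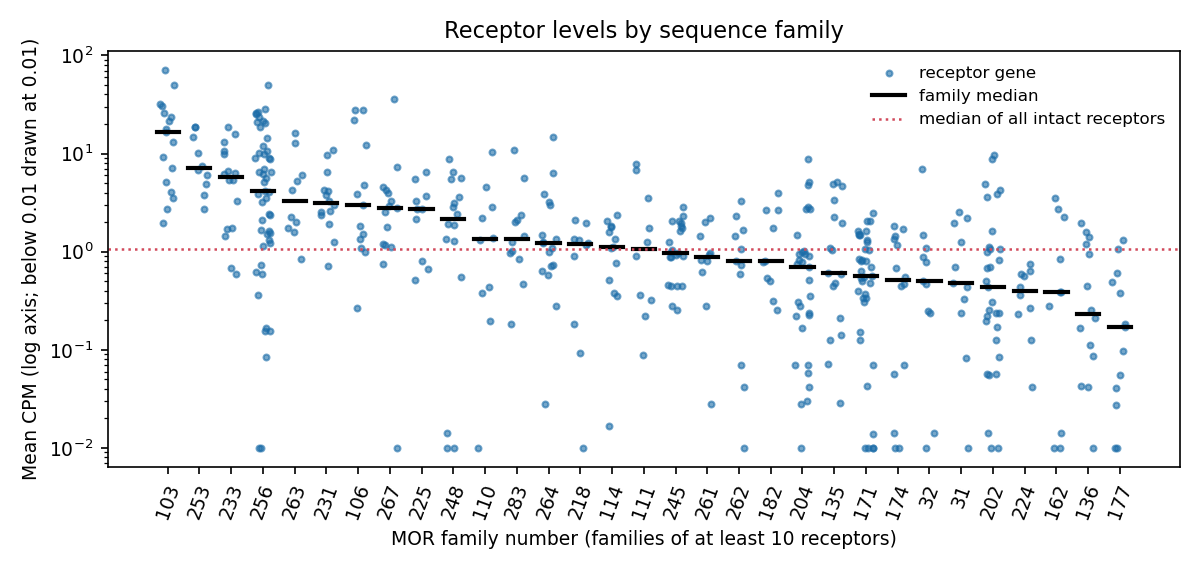
Mean level (CPM, log axis) of each receptor in the 31 MOR families of at least 10 intact receptors, with the family median as a black bar and the median of all receptors as a dotted line. MOR103 stands highest, with a median of 16.5 CPM, and MOR177 lowest, with 0.169 CPM.

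Receptor genes lie in clusters, and 53 runs of at least 5 intact receptors with no other protein-coding gene between them were followed. The run from Olfr1214 to Olfr1272 on chromosome 2, with 55 receptors, had the largest sum, 276, 315 and 358 CPM, or 9.27% of receptor counts. The run from Olfr525 to Olfr541 on chromosome 7 gave 175, 187 and 229 CPM, and 13 of its 16 receptors were highest in Control 3. The run from Olfr1393 to Olfr1380 on chromosome 11 gave 133, 215 and 127 CPM. Of its 13 receptors with at least 50 counts, 9 were highest in Control 2, with Olfr1391, Olfr1392, Olfr1386 (18.6, 34.6 and 17.0 CPM) and Olfr1389 (7.47, 15.3 and 6.99 CPM) contributing most of the excess. Olfr1384 (9.22, 8.06 and 12.9 CPM) and Olfr1383 (2.35, 1.77 and 3.18 CPM), of the same run, were lowest in that mouse. By contrast the run from Olfr1344 to Olfr1350 on chromosome 7 was steady, with 123, 119 and 125 CPM over 8 receptors. Neighbours share sequence as well as position, and several of the chromosome 11 receptors had divided reads, so their values are not independent of each other.

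Receptors of other chemosensory families had few counts in sum. The 16 genes of the trace amine-associated receptors, a family that detects volatile amines, summed to 88, 79 and 99 counts, the pseudogene Taar7c-ps included. Taar6 was the highest, with 0.886, 0.987 and 0.987 CPM, followed by Taar7f and Taar7e, and Taar1, Taar8a, Taar8b and Taar8c had no count. By CPM the mean of Taar6, 0.953 CPM, was near the 1.05 CPM of the median odorant receptor. Per kb of transcript it was higher, with 0.918 CPM against a median of 0.341 CPM, its annotated transcript having only 1038 bases. The 207 type 1 vomeronasal receptors summed to 110, 165 and 110 counts, with Vmn1r4 (2.45, 2.88 and 3.00 CPM) the highest and the single one kept by the filter on low counts, and the 119 type 2 receptors to 67, 67 and 79. Of 35 bitter taste receptors, 33 had no count. Of the Ms4a genes, some of which serve as receptors of necklace neurons, Ms4a7 had 43.2, 37.7 and 41.5 CPM, while Ms4a10, Ms4a12, Ms4a13, Ms4a15, Ms4a18 and Ms4a4d had no count. Ms4a7 is also expressed by macrophages.

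The 17 genes listed for olfactory transduction, the signalling apparatus behind the receptors, took 0.542%, 0.543% and 0.534% of counts in sum. Their median coefficient of variation was 0.0729, and single members had their highest value in different mice. Gng13, a G protein gamma subunit, had 145, 189 and 237 CPM, and Grk3, a receptor kinase, had 7.72, 8.89 and 4.80 CPM. Across the list, the median member lay at the 93.7th percentile of all 17279 genes by CPM, or the 79.8th per coding kb. The highest were Gnas (1411, 1198 and 1137 CPM), Gnb1 (1081, 1201 and 1312 CPM) and Gnal, the alpha subunit of the olfactory G protein, with 950 ± 25.4 CPM (SD, n = 3). From which cells the transcripts of Gnas and Gnb1 came was not tested, so the sum of the list is not a measure of receptor signalling alone. Gnas, Gnal and Adcy3, the olfactory adenylyl cyclase (176 ± 12.1 CPM), had divided reads in every library. The channel subunits Cnga2, Cnga4 and Cngb1 had 375, 115 and 40.4 CPM. Mature neuron genes took 1.99%, 2.21% and 2.08%, with Omp, the classic marker of maturity, at 4391, 5080 and 4472 CPM. Omp was the 9th highest of the protein-coding genes other than receptors. Ckb, of the same list, had 3340, 3570 and 2938 CPM. Immature neuron genes took 0.934%, 0.872% and 0.946%, led by Stmn1, Gap43 and Tubb3. Regulators of receptor choice took 0.247%, 0.243% and 0.254%, with Ebf2 and Lhx2 highest at 546 and 466 CPM. Atf5, a transcription factor of the feedback that stabilises receptor choice, varied more, with 149, 202 and 279 CPM. Genes linked to neurons outside the canonical type took 0.0616% to 0.0679%, most of it from Car2 (533, 580 and 514 CPM), and Gucy2d, the guanylyl cyclase that defines such neurons, had 1.48, 1.52 and 1.33 CPM. Rps6, which encodes the precipitated protein itself, had 251, 260 and 337 CPM, highest in Control 3 as were ribosomal protein genes in sum.

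Genes linked to neuronal activity were measured although no odorant had been given. The 22 immediate early genes took 0.108%, 0.108% and 0.0919% of counts, and their median member lay at the 52.9th percentile, close to the middle of all genes. Jun (239, 229 and 203 CPM), Jund and Dusp1 were the highest. Fos had 42.1, 54.3 and 27.2 CPM and Egr1 had 56.6, 79.8 and 47.3 CPM, both highest in Control 2 and lowest in Control 3, while Npas4, a gene of strongly depolarised neurons, had 0.0844, 0.0411 and 0.257 CPM. Of the slower, activity-dependent genes of receptor neurons, S100a5, a calcium-binding protein whose level follows receptor activity, had 1224, 1918 and 1610 CPM. Kirrel2, an adhesion molecule of axon sorting, had 185, 230 and 203 CPM. Together the 12 genes of that list took 0.173%, 0.248% and 0.208%, and S100a5 alone made up 70.6% to 77.3% of this sum. The other 11 genes summed to 509, 564 and 475 CPM, lowest in Control 3. Of them 4 were highest in Control 1, 5 in Control 2 and 2, Efna5 and Kirrel3, in Control 3. In turn 2 were lowest in Control 1, 2 in Control 2 and 7 in Control 3. Whether each member rises or falls with activity was not tested, so the sum is not a measure of activity.

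Of all genes, Tuba1a, an alpha-tubulin of growing neurons, was highest by CPM, with 11481, 10631 and 12184 CPM. Hba-a1 (5777, 7855 and 9337 CPM), Hbb-bs and Hba-a2, which encode globins, came next. Tuba1a and the globin genes had divided reads. Per coding kb these 3 globin genes came first, and Pcp4l1, Tmsb4x and Omp were among the 10 highest. Bpifa1, Ubb, Ftl1, Omp, Spp1 (4039, 4029 and 4053 CPM), Stmn1, Bpifb3, Ckb, Vmo1, Gapdh, Actg1, Calm2, H3f3b, Hspa8 and Sparc were also among the 20 highest by CPM. Spp1, a secreted matrix protein of bone and other tissues, had nearly the same level in each mouse.

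Genes of other cells of the nose stood at very different levels. Among members with enough counts, the median sustentacular gene lay at the 97.5th percentile of all 17279 genes. The median lay at the 30.4th for horizontal basal cells, the 32.7th for microvillar and tuft-like cells and the 45.8th for ensheathing and Schwann cells. Red blood cell genes took 1.89%, 2.51% and 2.99% of counts, lowest in Control 1. Sustentacular cell genes, of the supporting cells that detoxify inhaled compounds, took 0.903%, 0.784% and 0.740%, led by Cyp2a5, Ugt2a1 and Sec14l3. Globose basal cell and progenitor genes took 0.146%, 0.143% and 0.167%, with Hes6 at 586 ± 71.2 CPM, while horizontal basal cell genes took 0.0143% to 0.0166%, with Krt5 at 10.2, 7.08 and 6.99 CPM. Immune genes took 0.212%, 0.140% and 0.145%, where Control 1 was highest for Cd74 (505, 213 and 229 CPM) and H2-Ab1 (280, 131 and 142 CPM). Stromal genes were led by Col1a2 and Col1a1, and genes of bone by Ibsp and Bglap (281, 289 and 531 CPM). Among muscle genes, Myh1 and Myh4 had no count, while Acta1 had a mean of 1.73 CPM, Ckm 0.168 CPM and Tnnt3 0.0143 CPM. Acta1 had divided reads in every library. Ciliated cell genes took 0.0572% to 0.0705%. Microvillar and tuft-like cell genes took 0.0182%, 0.0162% and 0.0136%, led by Coch (111, 92.4 and 77.3 CPM), Foxi1 and Ascl3, with Trpm5 at 0.422, 0.206 and 0.472 CPM and Chat at 0.0422, 0.0823 and 0 CPM. Ensheathing and Schwann cell genes took 0.0289% to 0.0338%, led by Apod. The part of these cells in the receptor values was not tested.

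**Figure D5:**
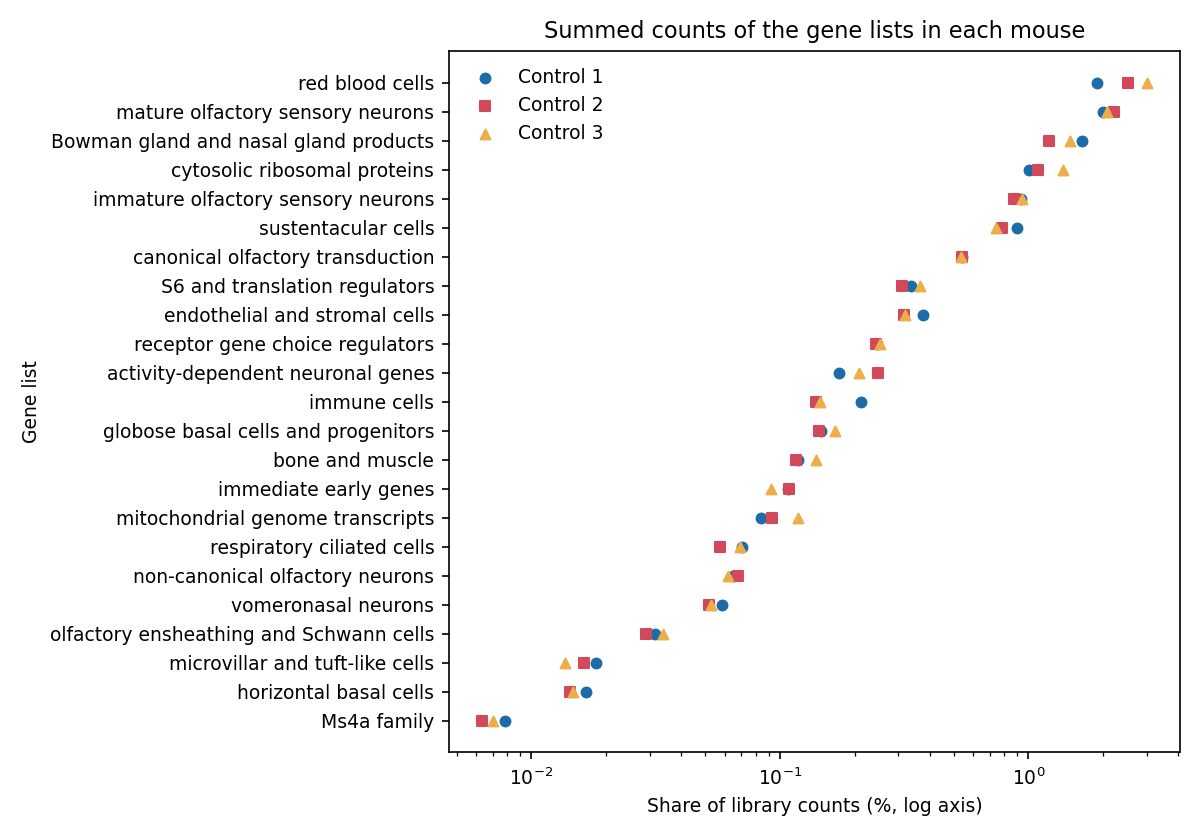
Summed share of library counts (%, log axis) of each gene list with at least 5 genes of enough counts, with 1 point for each Control mouse. The sum of transduction genes coincides at 0.534% to 0.543%, while red blood cell genes spread from 1.89% to 2.99%. Within the transduction sum, Gnas falls and Gnb1 rises from Control 1 to Control 3.

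Among protein-coding genes other than receptors with a mean of at least 1000 counts, most of the 10 with the largest coefficients of variation encode secreted proteins. Obp2a, an odorant binding protein made by nasal glands, had 0.169, 130 and 256 CPM, Obp1b 0.169, 110 and 233 CPM, and Lcn11 0.127, 48.3 and 155 CPM, with Control 1 nearly without them. Bpifb9b ran the other way, with 918, 263 and 5.40 CPM, as did Bpifb9a (307, 94.5 and 1.72 CPM). The abundant gland products Bpifa1 (7683, 4703 and 5735 CPM), Bpifb3 and Scgb1c1 did not split in this manner, and the list of gland products as a whole took 1.64%, 1.21% and 1.47%. All mice belonged to the same group, so these differences arose within the baseline, and the part of the dissection in them was not tested.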

How the data were processed

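The deposited table gives an expected count for each gene, which may carry a fraction and is not normalized. The submitters' processing notes name STAR 2.7.10b, Salmon 1.10.1 and R 4.4.2 as tools, and GRCm39 as the genome. RNA was prepared with a stranded kit, per the labels' protocols. The annotation and the use of strand are not given in the sources used here.

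The table has 15 library columns, and only the 3 of the Control group were read. CPM was taken over the library total. Symbols came from the name table supplied, which matched 91.3% of the gene identifiers, and genes without one held 0.313% to 0.374% of counts. Lengths and gene order came from GENCODE vM21 (GRCm38), since no protein table was at hand. Coding lengths were found for 87.7% of the 17279 genes kept by edgeR's filterByExpr (minimum count 10). Spread was estimated with edgeR 4.0.16 in R 4.3.3 on rounded counts with TMM scaling and an intercept only, and was tested on simulated data. Estimated counts more than 0.01 from a whole number in at least 2 libraries were taken as divided reads. Log2 levels of different mice were correlated with a pseudocount of 0.5. Coding sequences are the longest reading frames of the transcripts, which matched the annotated coding length for 936 of 1108 receptors.

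The class and family of a receptor were read from RefSeq synonyms. The rule was first worded as any MOR number under 100, and was narrowed, after its output was seen, to numbers written as family and member, because older names such as that of Olfr16 were taken for class I. Named genes were the 20 highest receptors and other genes, the 10 highest per coding kb, the 5 highest class I receptors, the receptors of largest and smallest variation, the one nearest the median, the 3 highest and the uncounted members of each list, and receptors well known from other work. A gene that this rule names is not reported here. Members and lists were chosen with earlier results of these data known. The scaling by transcript, families, runs, zone genes, bins of level, the tolerance, the most variable other genes and the printed pairs were chosen after values were seen. No group was compared, so there is no p-value. The alternatives tried were leaving out each mouse, other scalings and filters, and other sets of receptors.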

Additional observations from a re-analysis of the deposited data

How the results depend on the processing

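No paired analysis was possible because only 1 group was used and no comparison was made. Of the 54 alternative values computed, 43 stayed within 1 SD of the mice (for the BCV, 1 SD of the values that leave out a mouse), or within 1.5 times for a count, and 11 moved. With 3 mice, leaving out 1 of them cannot shift a mean by 1 SD. For the receptor share, the effective number and the class I share, the values without a mouse were therefore bound to count among the 43. Without receptors with divided reads the receptor share was 0.219% instead of 0.341%, the effective number 329 instead of 387 and the class I share 5.47% instead of 4.07%. The effective number was 411 with pseudogenes counted and 337 over receptors with 10 counts in every mouse. The class I share was 5.65% with any MOR number under 100 in the synonyms, which added 6 receptors, Olfr455 the highest of them. Genes holding 50% of counts numbered 903 by counts, 469 per coding kb and 456 per transcript kb. Without a filter on low counts the BCV was 0.150 over all genes and 0.311 over receptors. Leaving out each mouse in turn gave a receptor share of 0.329% to 0.358%, an effective number of 377 to 392, a class I share of 3.57% to 4.42%, a BCV of 0.114 to 0.142 over all genes (0.142 without Control 2) and of 0.236 to 0.265 over receptors. The 681 receptors with 10 counts in every mouse became 675 after thinning to the smallest total, 694 to 742 without a mouse, 945 at a minimum of 1 count, 458 at a minimum of 1 CPM, 534 without divided reads and 717 with pseudogenes, and depth limits statements on receptors under about 10 counts.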
